A study of Mus musculus with 8 samples.

Results

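Hemoglobin and heme synthesis were followed through 9 genes in articular cartilage of WT and Oscar-/- mice. The genes were the adult alpha globins Hba-a1 and Hba-a2, the adult beta globins Hbb-bs and Hbb-bt, and the heme synthesis genes Alas2, Alad, Urod, Fech and Slc25a37. They were found by their mouse Ensembl identifiers among the 52636 genes of the deposited tables, all 9 were read in all 8 libraries, and all 9 were among the 12538 protein-coding genes with a TPM above 1 in at least 1 library. TPM is a read share that corrects for gene length and adds up to the same total in every library. The mice were C57BL/6 males, labelled as 10 weeks old, that carried an intact Oscar gene (WT) or lacked it (Oscar-/-). They had sham surgery or destabilization of the medial meniscus (DMM), a surgical model of osteoarthritis, and cartilage was taken 2 or 4 weeks later. Each of the 8 combinations of genotype, surgery and week gave 1 library, made from RNA of 10 cartilages combined, so that no condition had a second library and a difference between single libraries has no replicate check. Oscar, which encodes the osteoclast-associated receptor, had 42 to 118 expected counts in the WT libraries and 0 in all 4 Oscar-/- libraries.

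Hemoglobin is a tetramer of alpha chains, from Hba-a1 and Hba-a2, and beta chains, from Hbb-bs and Hbb-bt in C57BL/6 mice, each holding a heme group. Heme is built in mitochondria and cytosol by a chain of enzymes. Alas2 encodes the erythroid 5-aminolevulinate synthase of the first step, Alad joins its product into porphobilinogen, Urod trims uroporphyrinogen to coproporphyrinogen, and Fech, ferrochelatase, puts iron into the finished ring. Slc25a37, mitoferrin-1, carries iron into the mitochondria of red cell precursors. Cartilage itself has no blood vessels, while marrow lies beneath it in the bone, and red cell precursors carry these transcripts in great amounts. In bulk RNA of this kind, fewer cells of a type and less RNA per cell cannot be told apart.

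The bases before the start of the genes are shown for those whose response to surgery is described below and whose upstream bases lie outside the annotated gene, since alpha globin and Alas2 are known for erythroid control and Alad and Urod also serve other cells. The sequences are from RefSeq on GRCm38.p6, which had entries for 7 of the 9 genes, and are cut where the GENCODE gene begins. Capitals mark matches on either strand to each of 4 motifs. The GATA motif was searched in its forms AGATAA and AGATAG, and with T as its first letter. The CACCC motif and the motif with the letters CCAAT were searched as written, and the TATA motif was searched as TATAA.
Hba-a2 (chr11:32296242-32296488, plus strand): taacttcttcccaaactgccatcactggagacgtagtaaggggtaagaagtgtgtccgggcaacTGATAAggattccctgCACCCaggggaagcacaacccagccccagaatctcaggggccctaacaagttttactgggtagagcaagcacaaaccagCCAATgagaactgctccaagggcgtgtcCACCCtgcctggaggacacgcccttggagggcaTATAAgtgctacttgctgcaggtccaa
Alas2 (chrX:150547167-150547374, plus strand): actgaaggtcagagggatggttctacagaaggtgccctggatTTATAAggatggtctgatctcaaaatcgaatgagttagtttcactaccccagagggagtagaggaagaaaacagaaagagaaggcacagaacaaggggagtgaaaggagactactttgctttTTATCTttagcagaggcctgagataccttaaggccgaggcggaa
Alad (chr4:62519919-62520159, minus strand): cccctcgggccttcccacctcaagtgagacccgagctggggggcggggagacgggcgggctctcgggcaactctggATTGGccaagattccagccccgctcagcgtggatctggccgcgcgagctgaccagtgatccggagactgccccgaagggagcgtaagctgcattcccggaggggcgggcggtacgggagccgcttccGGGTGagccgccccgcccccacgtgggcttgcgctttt
Urod (chr4:116994414-116994663, minus strand): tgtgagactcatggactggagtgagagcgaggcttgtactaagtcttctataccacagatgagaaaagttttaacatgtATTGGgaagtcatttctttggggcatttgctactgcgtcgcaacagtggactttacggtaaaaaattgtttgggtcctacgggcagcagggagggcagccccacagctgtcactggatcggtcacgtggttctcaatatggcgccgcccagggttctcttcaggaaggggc
The Hba-a2 stretch held a GATA match 186 bases before the RefSeq start, CACCC matches at 170 and 63 bases, CCAAT at 91 and TATA at 30. Hba-a1 had the same letters at all 247 aligned bases. The Alas2 stretch held 1 GATA match and the TATA letters on both strands at overlapping positions, and 3 CACCC matches lay inside the annotated gene. The Alad stretch held CCAAT and CACCC letters and the Urod stretch CCAAT alone. Alad had another RefSeq start, not shown. Its window (chr4:62520064-62520313) held CCAAT at 231 and 20 bases and no CACCC match. In windows of 250 bases before 32544 RefSeq starts, 26.5% held a GATA match, 52.1% CACCC, 33.8% CCAAT and 22.7% TATA, so each set of letters is common and a match is a description only.

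The 4 globins were the most abundant of the 9 genes. Per length, Hbb-bs (chromosome 7, 103826534 to 103828096, minus strand of GRCm38, ENSMUSG00000052305) had the highest level, from 124500 to 174300 TPM with a median of 138500. Hba-a2 (chromosome 11, 32296489 to 32297298, plus strand, ENSMUSG00000069917) followed with 71320 to 102200 TPM, Hba-a1 (chromosome 11, 32283511 to 32284465, plus strand, ENSMUSG00000069919) with 48000 to 80480 and Hbb-bt (chromosome 7, 103812524 to 103813996, minus strand, ENSMUSG00000073940) with 20810 to 29120. In each library the order was the same, although the ranges of Hba-a1 and Hba-a2 over the libraries overlapped.

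The heme synthesis genes were read at far lower levels. Alas2 (chromosome X, 150547375 to 150570638, plus strand, ENSMUSG00000025270) ranged from 913.7 to 1234 TPM. Slc25a37 (chromosome 14, 69241848 to 69285112, minus strand, ENSMUSG00000034248) ranged from 170.8 to 304.4 TPM, Urod (chromosome 4, 116989965 to 116994413, minus strand, ENSMUSG00000028684) from 209.4 to 273.3, Fech (chromosome 18, 64452914 to 64490251, minus strand, ENSMUSG00000024588) from 168.3 to 225.3 and Alad (chromosome 4, 62509169 to 62519918, minus strand, ENSMUSG00000028393) from 106.6 to 151.5. Slc25a37, Urod and Fech overlapped in range and their order changed between libraries, whereas Alas2 lay above them and Alad below them in every library. From the lowest to the highest library the 9 genes differed by 1.31-fold (Urod) to 1.78-fold (Slc25a37) in TPM.

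Hemoglobin took a large and uneven share of each library. At 2 weeks the globins made up 37.7% of TPM after sham and 30.7% after DMM surgery in WT, and 32.4% after sham and 34.5% after DMM in Oscar-/-. At 4 weeks the same libraries had 29.6% and 31.0% in WT and 26.5% and 37.0% in Oscar-/-. The highest shares were in WT sham at 2 weeks and Oscar-/- DMM at 4 weeks, and the lowest in Oscar-/- sham at 4 weeks. Of expected counts, RSEM's estimates of read numbers, the globins took 12.5% to 21.2%, a smaller part because their transcripts are short. The share was 33.3% ± 3.01 (SD, n = 4) after DMM and 31.5% ± 4.75 (SD, n = 4) after sham surgery, a difference of 1.74 percentage points (two-sided exact permutation p = 0.571, Benjamini-Hochberg 0.857 over the 3 factors). Between genotypes the difference was 0.33 points (exact permutation p = 0.943), and between weeks it was -2.79 points, with means of 31.0% at 4 weeks and 33.8% at 2 weeks (exact permutation p = 0.343, adjusted 0.857). With 4 libraries against 4 this test can reach 0.0286 at the lowest, and groups overlapped for all 3 factors. The 4 libraries of a group differed in the other factors, so SD and p-value include that spread. The test did not match libraries across the other factors, so opposite changes in the genotypes can cancel in it.

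**Figure D1:**
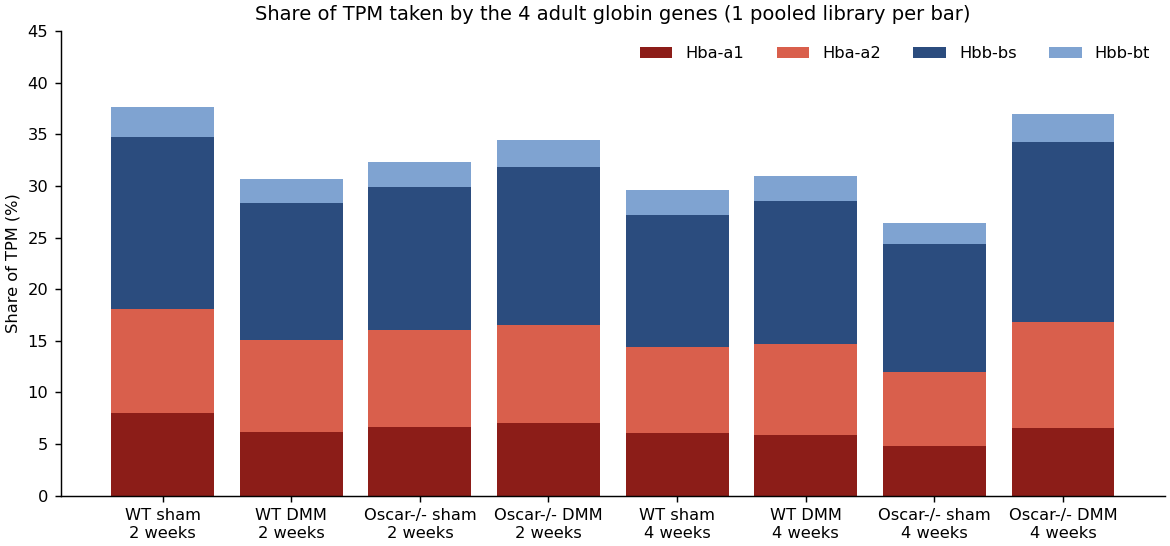
Share of TPM (%) taken by the 4 adult globin genes in each of the 8 libraries, stacked by gene, with 1 bar per pooled library. The total runs from 26.5% in Oscar-/- sham at 4 weeks to 37.7% in WT sham at 2 weeks, and Hbb-bs is the largest part of every bar.

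The balance between globin chains varied less than their sum. Alpha over beta globin TPM at 2 weeks was 0.93 after sham and 0.97 after DMM surgery for WT, with 0.99 and 0.92 for Oscar-/-. The 4-week ratios were 0.95 and 0.90 for WT and 0.82 and 0.83 for Oscar-/-, so that both Oscar-/- libraries of 4 weeks lay below the other 6. Hbb-bs over Hbb-bt was 5.70 to 5.76 in the 2-week libraries and spread from 5.34 to 6.35 at 4 weeks. Hba-a2 over Hba-a1 ranged from 1.25 to 1.55 in TPM. At 4 weeks the lane tag in the file names differed between WT and Oscar-/- libraries, so that lane and genotype cannot be told apart there.

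The copies within each globin pair share reads, and their separate values are uncertain. The annotated transcripts of Hba-a1 and Hba-a2 differed at 1 of 538 aligned bases, and 74.2% of the stretches of a read's length in that of Hba-a2 also occurred in that of Hba-a1. The transcripts of Hbb-bs and Hbb-bt were identical at 92.7% of 626 aligned bases, and 62.5% of the stretches of Hbb-bs also occurred in Hbb-bt. Alpha and beta transcripts shared none.

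The comparison of the response to DMM surgery between genotypes gave the clearest differences among the 9 genes. For it, expected counts were scaled with factors computed without the globins, and are given per 1000000 of the scaled library as scaled counts, so that a change in hemoglobin would not move the other genes. Urod at 2 weeks had 354 scaled counts after sham and 266 after DMM in WT, and 279 after sham and 349 after DMM in Oscar-/-. At 4 weeks it had 309 and 280 in WT and 243 and 321 in Oscar-/-. After DMM surgery Urod was lower than after sham in WT and higher than after sham in Oscar-/- at both weeks. The log2 response to DMM in Oscar-/- minus that in WT was 0.64 (SE 0.13) over both weeks, and passed edgeR's quasi-likelihood test with an adjusted p of 0.0271.

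Alad, the enzyme that makes porphobilinogen, had the same pattern. At 2 weeks it had 218 scaled counts after sham and 160 after DMM in WT, and 186 and 213 in Oscar-/-. The 4-week levels were 200 and 178 in WT and 154 and 198 in Oscar-/-. The interaction was 0.58 (SE 0.14, adjusted p = 0.0429, edgeR). Alad and Urod were the 2 of 9 genes called, both higher, where 1.41% of the 12538 genes were called higher, 3.82% lower and 5.23% in either direction. Among all genes, 177 were called higher and 479 lower in this comparison, against 14 and 565 with total counts as the scale and 8 and 342 with limma on log2(TPM + 1).

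Both calls rested on most of the libraries. Without WT sham at 4 weeks 8 genes were called, all but Slc25a37, without WT sham at 2 weeks Urod alone was called, and without any 1 of the other 6 libraries none was called. Calls over all genes tested also rose without WT sham at 4 weeks, and they fell without any other library. The estimates of both genes kept their sign throughout, from 0.53 to 0.76 for Urod and from 0.44 to 0.75 for Alad when a library was left out. Leaving the globins out of the factors mattered little. With factors of the same kind (TMM) over all genes tested, globins included, 2 of the 9 genes were again called. The median of the 9 was then 0.64, and 657 genes were called in all, against 656. The estimates did move with other scales and with the tool. On log2(TPM + 1) with limma, which changes both, Urod had 0.25 (adjusted p = 0.423) and Alad 0.29 (adjusted p = 0.420), and with total counts of all genes as the scale 0.50 (adjusted p = 0.103) and 0.44 (adjusted p = 0.194, edgeR).

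The globins and the other heme genes had estimates of like size that did not pass. Hba-a1, for example, had 75380 scaled counts after sham and 44550 after DMM in WT at 2 weeks, and 50940 and 55360 in Oscar-/-. At 4 weeks it had 39200 and 36590 in WT and 32570 and 49680 in Oscar-/-. Its interaction was 0.81 (SE 0.27, adjusted p = 0.10, edgeR). Hbb-bs had 133800 scaled counts after sham and 83130 after DMM in WT at 2 weeks and 91160 and 104000 in Oscar-/-, and at 4 weeks 72590 and 76040 in WT and 74040 and 115400 in Oscar-/-. Its interaction was 0.77 (SE 0.31, adjusted p = 0.156, edgeR). At 2 weeks WT sham was the highest library for both genes, and at 4 weeks Oscar-/- DMM was.

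Hba-a2 (0.65, SE 0.27) and Hbb-bt (0.75, SE 0.25) had adjusted p of 0.179 and 0.105 in edgeR. Summed within each pair, to be free of how reads were divided, the alpha globins had 0.73 (SE 0.27, adjusted p = 0.134) and the beta globins 0.77 (SE 0.29, adjusted p = 0.142, edgeR). Globins varied more around the fit than the enzymes, as the larger errors show. On log2(TPM + 1) with limma it was Hba-a1 and Hbb-bt that passed, with smaller estimates of 0.48 (adjusted p = 0.0269) and 0.42 (adjusted p = 0.0480), and neither Alad nor Urod.

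Alas2, the first enzyme, had 2848 scaled counts after sham and 2169 after DMM in WT at 2 weeks and 2474 and 2676 in Oscar-/-. At 4 weeks it had 2010 and 1922 in WT and 1809 and 2630 in Oscar-/-. The difference at 4 weeks came mainly from the Oscar-/- libraries and that at 2 weeks mainly from WT. Its interaction was 0.56 (SE 0.19, adjusted p = 0.104, edgeR), that of Fech 0.48 (SE 0.14, adjusted p = 0.0699) and that of Slc25a37 0.33 (SE 0.14, adjusted p = 0.194). DESeq2's Wald test called Alas2 and Fech beside Alad and Urod, with adjusted p of 0.0249 and 0.0158. Over all genes it called 457 in this interaction, 174 higher and 283 lower. The 9 estimates were all above 0 and had a median of 0.64, against -0.008 over all genes tested.

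**Figure D2:**
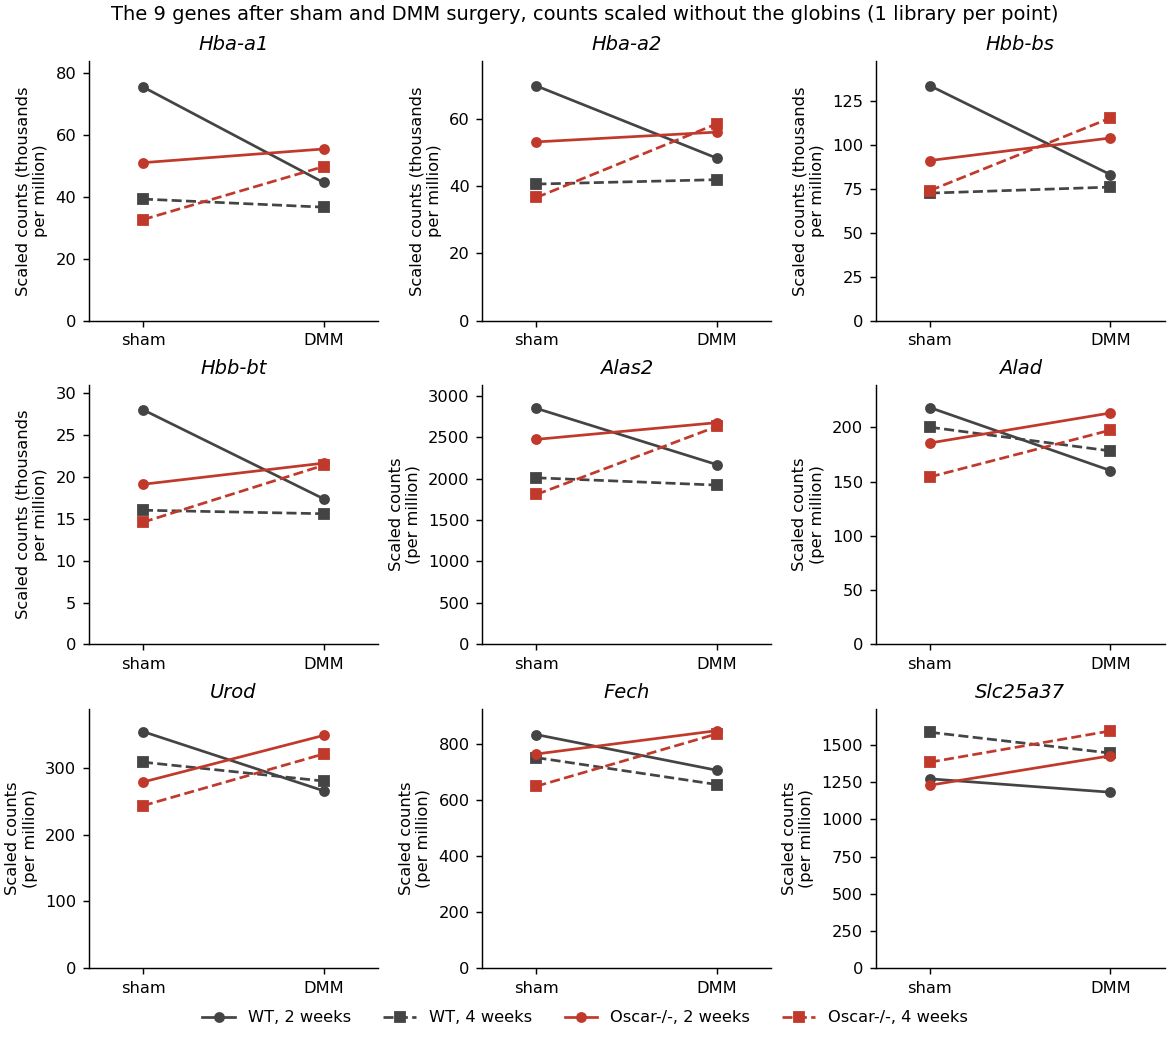
Scaled counts (scaled without the globins, divided by 1000 for the 4 globins) after sham and DMM surgery in WT (gray) and Oscar-/- (red) at 2 weeks (circles, solid) and 4 weeks (squares, dashed), with 1 library per point and axes from 0. The red lines go up in all 9 panels, while the gray lines go down except for Hba-a2 and Hbb-bs at 4 weeks.

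On scaled counts, 7 of the 9 genes were lower after DMM in WT and higher after DMM in Oscar-/- at both weeks, where 16.8% of all genes tested were. Hba-a2 and Hbb-bs were the exceptions, with log2 ratios of DMM to sham in WT at 4 weeks of 0.05 and 0.07. On TPM as deposited the count was 3 of 9, namely Hba-a1, Alas2 and Alad, where 2.59% of all genes were. The signs of single genes in WT therefore turned with the scale. Urod in WT at 2 weeks had a log2 ratio of 0.01 in TPM and of -0.42 in scaled counts, and Slc25a37 had 0.22 and -0.10.

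The size of that shift can be read from the difference DIF, the log2 ratio of DMM to sham in Oscar-/- minus the log2 ratio in WT, at each week. On TPM the median DIF of the 9 genes was 0.25 at 2 weeks and 0.37 at 4 weeks, while that of all genes tested was -0.41 and -0.22. Leaving the 4 globins out of the TPM total raised the DIF of every gene by 0.20 at both weeks. The medians of the 9 genes were then 0.45 and 0.57 and those of all genes -0.21 and -0.02. On scaled counts the medians were 0.65 and 0.57 for the 9 genes and -0.01 and -0.02 for all genes. Thus the distance between the 9 genes and the rest was much the same on the 3 scales, and what moved was the zero point. This follows from how the scales are made and is no separate check. TPM and globin-free TPM differ by a single factor per library, and scaled counts differ from them mainly by another such factor. With 1 library per condition DIF has no test.

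By gene, Fech and Slc25a37 were where the scale decided the sign. The DIF of Fech at 2 weeks was -0.02 on TPM, 0.18 on globin-free TPM and 0.39 on scaled counts. That of Slc25a37 at 2 weeks was -0.04, 0.16 and 0.32. The other 7 genes had a DIF above 0 at both weeks on all 3 scales, from 0.19 for Hba-a2 at 2 weeks on TPM to 0.88 for Hba-a1 at 2 weeks on scaled counts. The counting SE of these differences was 0.003 to 0.062, which covers counting error alone.

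**Figure D3:**
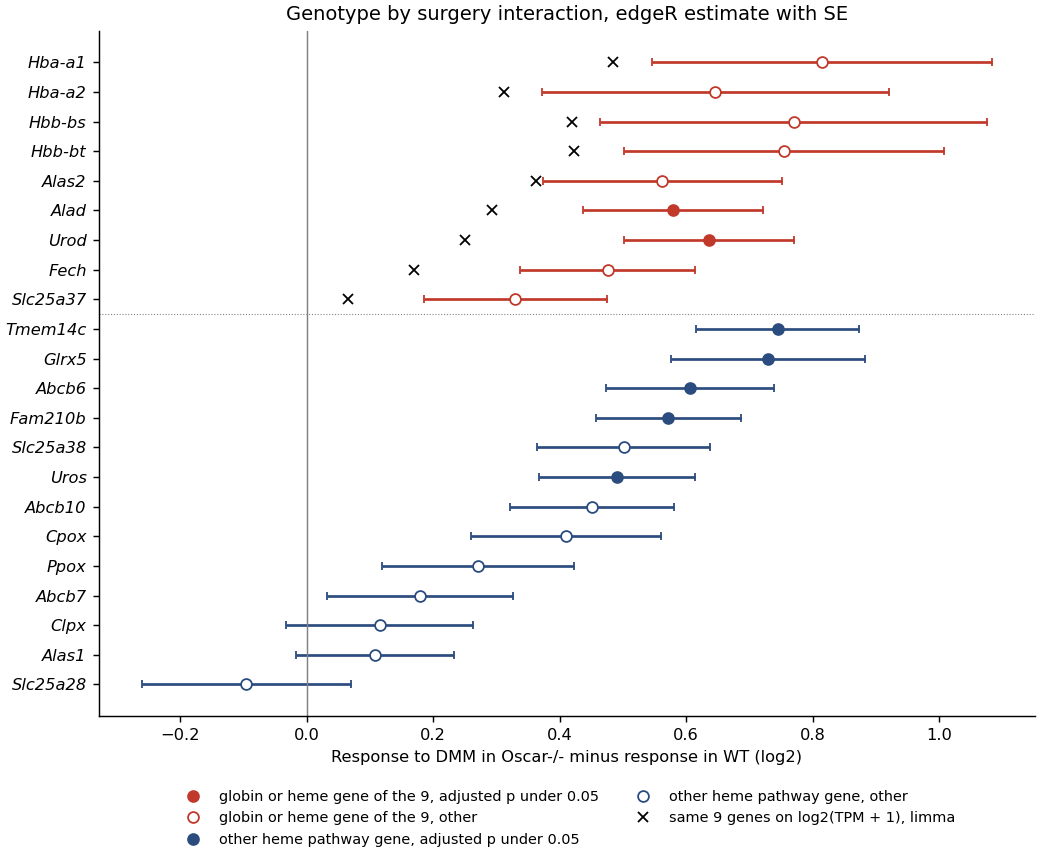
Genotype by surgery interaction (log2 response to DMM in Oscar-/- minus that in WT, over both weeks) from edgeR with its SE, for the 9 genes (red) and 13 of the other heme pathway genes (blue). Filled points have an adjusted p under 0.05 and crosses give the limma estimate on log2(TPM + 1). Urod (0.64) and Alad (0.58) are filled, and all 9 crosses lie left of their points, as does the median of all genes on that scale (-0.26).

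The heme pathway beyond the 9 genes was read from a list of 14. In the same interaction 6 of the 14 were called higher and none lower, where 1.41% of all genes were called higher. Among them were Tmem14c, a mitochondrial carrier of the porphyrin precursor (0.74, SE 0.13, adjusted p = 0.0175), Glrx5, which hands on iron-sulfur clusters (0.73, SE 0.15, adjusted p = 0.0271), Abcb6, a porphyrin transporter (0.61, SE 0.13, adjusted p = 0.0305), Fam210b, a mitochondrial protein of erythroid heme synthesis (0.57, SE 0.11, adjusted p = 0.0250), and Uros, the enzyme before Urod (0.49, SE 0.12, adjusted p = 0.0453), all by edgeR. Alas1, the form of the first enzyme used outside red cells, had 0.11 (SE 0.13, adjusted p = 0.643), and Slc25a28, mitoferrin-2, the counterpart of Slc25a37 in other cells, had -0.10 (SE 0.17, adjusted p = 0.765). These were the lowest estimates of the list. Its other uncalled genes had 0.12 (Clpx) to 0.50 (Slc25a38), with Ppox at 0.27 and Cpox at 0.41. The median of the list was 0.47. Its summed level was 3385 to 3445 scaled counts in WT sham, 2641 to 3000 in WT DMM, 2905 to 2975 in Oscar-/- sham and 3454 to 3574 in Oscar-/- DMM. Each of these groups held 2 libraries, from different weeks.

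Regulators of globin genes gave 3 calls among 12, all higher, where 1.41% of all genes were called higher. Klf1, the erythroid factor that binds CACCC letters of the beta globin promoter, had 0.74 (SE 0.15, adjusted p = 0.0245), Nfe2, an erythroid transcription factor, had 0.52 (SE 0.13, adjusted p = 0.0402) and Lmo2, part of the GATA1 complex, had 0.50 (SE 0.12, adjusted p = 0.0367) in edgeR. Of the heme breakdown and transport list, 2 of 9 tested genes were called higher against the same share of all genes, namely Blvrb, a biliverdin reductase (0.69, SE 0.13, adjusted p = 0.0195), and Abcg2, a porphyrin exporter (0.61, SE 0.13, adjusted p = 0.0289). None of the 12 iron supply genes was called. Among minor globins, Hbq1b was at 54.35 to 80.80 TPM and Hbq1a at 4.96 to 7.60, while the embryonic globins Hbb-y, Hba-x, Hbb-bh1 and the related Hbb-bh2 did not exceed 1.41 TPM in any library.

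Of 14 markers of red cells outside the 9 genes, 6 were called higher in the interaction and 8 were not called, where 1.41% of all genes were called higher. Among the 6 were Car1 (0.92), Rhd (0.68), Epor (0.61), Rhag (0.53) and Tspo2 (0.50), with adjusted p of 0.0250 to 0.0451 in edgeR. Among the 8 were Slc4a1, the anion exchanger of the red cell membrane, at 0.35 (adjusted p = 0.258) and Trim58 at -0.0063 (adjusted p = 0.993), and the median of the list was 0.52. The summed markers were at 9948 to 10280 scaled counts in WT sham, 8788 to 8979 in WT DMM, 8407 to 9694 in Oscar-/- sham and 10770 to 11410 in Oscar-/- DMM, and no marker was at 0 in any library. Platelet genes were called higher in 4 of 6, osteoblast genes lower in 5 of 8 and chondrocyte genes lower in 3 of 15 tested, where 1.41% of all genes were called higher and 3.82% lower, while none of 10 neutrophil and 8 B cell genes was called. The 16 chondrocyte genes, markers of the labelled tissue, were all read in every library and summed to 1050 to 2951 TPM, against 67740 to 109700 TPM for 10 neutrophil genes. The part of the makeup of the pools in the differences of the 9 genes was not tested.

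Surgery, genotype and week by themselves gave no call among the 9 genes. For surgery edgeR called 0 of 12538 genes (0.0%), with 804 at an unadjusted p under 0.05, and DESeq2 called 73, none of them among the 9. The estimates of DMM against sham ran from -0.03 (Hba-a1) to 0.07 (Hba-a2). For genotype 0.0479% of genes were called, and the 9 genes had estimates of -0.03 (Urod) to 0.10 (Alas2), none with an unadjusted p under 0.05 in edgeR or a call in DESeq2. A difference between the response at 2 and at 4 weeks was called for no gene (0.0%) by edgeR, with 257 at an unadjusted p under 0.05, and DESeq2 called 18, none among the 9. Its estimates for the globins, 0.55 to 0.66, had SE of 0.39 to 0.48.

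For week, 4 against 2, the estimate of the iron carrier was above 0 and those of the globins below it. Slc25a37 at 2 weeks had 171 TPM after sham and 199.5 after DMM in WT, and 195 and 222 in Oscar-/-. Its 4-week levels were 304 and 287 TPM in WT and 255 and 270.3 in Oscar-/-. All 4 libraries of 4 weeks lay above all 4 of 2 weeks in TPM, as did 27.9% of the genes tested, and in scaled counts they overlapped, where 10.6% of genes lay apart in this way. In edgeR the change was 0.23 (SE 0.10, unadjusted p = 0.0439, adjusted p = 0.171) and on log2(TPM + 1) with limma 0.50 (adjusted p = 0.00229), a scale on which the median of all genes was 0.23. Hba-a1 was lower at 4 weeks with -0.51 (SE 0.22, unadjusted p = 0.0438, adjusted p = 0.171), and the other globins had -0.36 to -0.30 (adjusted p = 0.291 to 0.457, edgeR). None of the 9 was thus called, where 7.93% of all genes were, 5.58% higher and 2.35% lower (699 higher and 295 lower, against 2639 and 60 with limma on log2(TPM + 1) and 1346 and 85 with total counts).

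Ratios within a library do not depend on its scaling. Slc25a37 over Alas2 in TPM at 2 weeks was 0.15 after sham and 0.20 after DMM surgery for WT, with 0.18 and 0.20 for Oscar-/-. The 4-week ratios were 0.27 and 0.27 for WT and 0.28 and 0.22 for Oscar-/-, with no overlap between weeks. The 5 heme synthesis genes together, Slc25a37 included, had 4.77 to 5.59 TPM per 1000 TPM of globin at 2 weeks and 5.71 to 7.04 at 4 weeks, again with no overlap. Alas2 alone overlapped, with 3.005 to 3.401 at 2 weeks and 3.338 to 3.821 at 4 weeks. Urod alone overlapped too, with 0.5621 to 0.7255 and 0.7054 to 0.9226. Such ratios were not computed for other genes, so the share of genes that separate the weeks in this way is not known. The week also differed in the lane tags of the file names, where all 2-week libraries shared 1 lane and the 4-week libraries were on 2 others, and in the fragment length estimated from the deposited effective lengths, 173 to 177 bases at 2 weeks and 146 to 153 at 4 weeks. Lane and week cannot be told apart, and the part of fragment length was not tested.

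**Figure D4:**
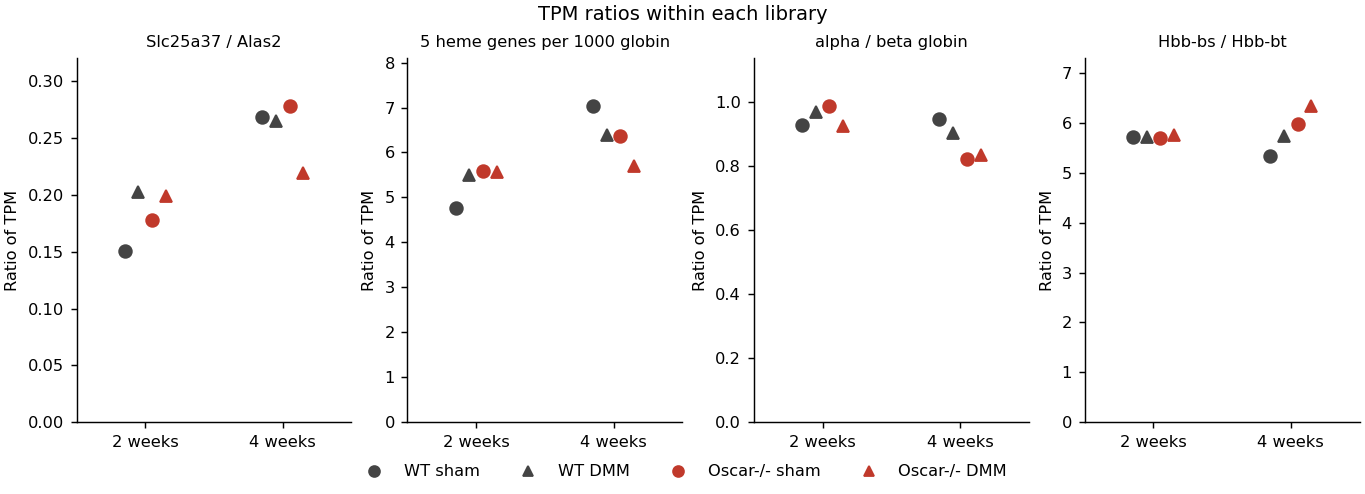
TPM ratios within each library at 2 and 4 weeks, with WT in gray, Oscar-/- in red, sham as circles and DMM as triangles, each point 1 library and axes from 0. Slc25a37 over Alas2 (0.15 to 0.20 against 0.22 to 0.28) and the 5 heme genes per 1000 globin TPM (4.77 to 5.59 against 5.71 to 7.04) separate the weeks, while alpha over beta globin and Hbb-bs over Hbb-bt overlap. Such ratios were not computed for other genes.

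The genes whose levels most resembled those of Alas2 were found among 10827 well-counted genes by Pearson correlation of log2(globin-free TPM + 1) over the 8 libraries. Among the 10 closest were Isg20 (r = 0.988), Gstm5 (0.974), Hspb6, Ube2l6, Atpif1, Rps18, Isca1 and Orc6 (0.935). For summed hemoglobin they were Zmat2 (r = 0.985), Rpl21, Gstm5, Fam220a, Eef1b2, Rps18, Sugt1, Rpl12, Rpl31 and Rpl26 (0.956), 5 of them genes of ribosomal proteins. Among the 9 genes, Alas2 correlated with the globins at 0.86 (Hba-a1) to 0.93 (Hbb-bt), with Urod, Fech and Alad at 0.68 to 0.72 and with Slc25a37 at 0.15. These values describe 8 points that share lanes and depth in part and carry no test.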

How the data were processed

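Stranded mRNA libraries of articular cartilage were sequenced by the authors as paired reads, aligned with STAR 2.6.0a and quantified with RSEM 1.2.17, as the paper and the submitters' processing notes give them. The notes name a human build, whereas the tables carry mouse identifiers. Expected counts, as deposited, divide shared reads between genes and need not be whole, and the TPM values the authors deposited are scaled to one total per library, so abundant globins lower the TPM of all other genes. Total expected counts were 13189181 to 18533609 per library.

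Identifiers were matched to GENCODE M21 on GRCm38 (52403 of 52636). Rounded expected counts of 12538 protein-coding genes with a TPM above 1 in at least 1 library were tested with edgeR 4.0.16 (quasi-likelihood, Benjamini-Hochberg, threshold 0.05) in R 4.3.3, scaled by TMM computed without the 4 globins. Week, surgery and genotype were additive terms (4 residual degrees of freedom), and each interaction was added in turn (3 residual degrees of freedom). No condition had a second library, so p-values measure the spread left after these terms, which may be technical. In the genotype by surgery fit the weeks stood in for replicates, so this spread includes changes of these effects between weeks. It is not a spread between animals of a condition. DESeq2 1.42.0, limma 3.58.1 on log2(TPM + 1) or log2(TPM + 0.1), other scalings, other filters, summed paralogs and the omission of each library were alternatives. The tests were tried on simulated data.

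Members and gene lists were chosen with earlier results of these data known. The text names by rule all 9 genes, list genes that passed a test (up to 6 per list by lowest p) and the 10 genes most correlated with Alas2 and with summed hemoglobin among those with at least 50 counts in every library. Some list genes that passed no test, such as Alas1, Slc25a28, Slc4a1 and Trim58, are named outside this rule. Some genes that this rule selects are not reported here. Of the lists, 1 gene was not matched and not analysed here. Each motif was searched in RefSeq windows of 250 bases.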

Additional observations from a re-analysis of the deposited data

Results flagged for a closer look

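The response to DMM surgery differed between WT and Oscar-/- mice for Urod and Alad by a test of the difference itself, the genotype by surgery interaction in edgeR. It was 0.64 on the log2 scale for Urod (adjusted p = 0.0271) and 0.58 for Alad (adjusted p = 0.0429), positive values meaning a higher response in Oscar-/-. Each combination of week, genotype and surgery had 1 pooled library. In scaled counts both genes were lower after DMM than after sham in 2 of 2 weeks in WT, and both were higher in 2 of 2 weeks in Oscar-/-. Of all genes tested 16.8% showed this pattern. In TPM Alad showed it and Urod did not, with a log2 ratio of 0.01 in WT at 2 weeks. Neither gene was called with total counts of all genes as the scale or with limma on log2(TPM + 1). Both calls also rested on most of the libraries, as described above. The part of red cell content in either difference was not tested.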

How the results depend on the processing

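No paired analysis was possible because the labels carry no replicate numbers to pair libraries by, and week and genotype were already terms of the fit. No call among the 9 genes was made for surgery, genotype or the week by surgery interaction under any alternative run. For week, Slc25a37 was the 1 gene called, higher at 4 weeks, with total counts of all genes (adjusted p = 0.0354, edgeR) and with limma on log2(TPM + 1), log2(TPM + 0.1) and globin-free TPM (0.00229, 0.00264 and 0.00707), and leaving out a library gave 0 calls each time.

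For the genotype by surgery interaction the 2 calls became 0 with total counts of all genes, with total counts without globins and with limma on globin-free TPM, 4 with DESeq2 and 8 with no filter on low values and genes of all types (called all types below), and ranged from 0 to 8 when a library was left out. The adjusted p of the interaction ran from 2.83e-04 to 0.425 for Urod and from 8.87e-04 to 0.426 for Alad over all alternatives, and no estimate of the 9 genes changed sign. Signs of uncalled estimates turned in 44 of 176 cases for surgery, 34 for genotype, 17 for week and 15 for the week by surgery interaction. Over all genes the interaction calls, 656, were 34 with limma on globin-free TPM, 350 and 334 on log2(TPM + 1) and log2(TPM + 0.1), 396 with total counts without globins, 1638 with all types and 14 to 1959 with a library left out. For week they were 994, against 2699, 2676 and 3073 with limma on the 2 pseudocounts and on globin-free TPM, 1556 with total counts without globins, 1546 with all types and 252 to 769 with a library left out. For surgery they were 0, against 129 with all types, 21, 10 and 3 with limma and 0 to 52 with a library left out. For genotype they were 6, against 10 with DESeq2, 19 with all types, 4 with limma on log2(TPM + 0.1) or globin-free TPM and 2 to 8 with a library left out. For the week by surgery interaction they were 0, against 102 with all types, 1 with limma on either pseudocount and 0 to 9 with a library left out. The cause of these changes was not tested.

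The median DIF of the 9 genes was 0.248 at 2 weeks and 0.373 at 4 weeks. It was 0.447 and 0.568 on globin-free TPM and 0.647 and 0.574 on scaled counts. With the library of the other week put in place of the one left out it ranged from 0.088 to 0.493 at 2 weeks and from 0.232 to 0.522 at 4 weeks. The difference in hemoglobin share ranged from 0.0565 to 3.79 points for surgery, from -1.14 to 2.36 for genotype and from -4.78 to -1.28 for week when a library was left out, and passed no test. The lowest count of the 9 genes in any library was 1786.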

Other observations

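Among genes of heme handling outside synthesis, 5 were called higher at 4 weeks. Hmox1, the enzyme that breaks heme open, was higher at 4 weeks by 0.59 on the log2 scale (SE 0.15, adjusted p = 0.0411), Cd163, the macrophage receptor for hemoglobin bound to haptoglobin, by 0.72 (SE 0.15, adjusted p = 0.0225) and Flvcr1, a heme exporter, by 0.43 (SE 0.10, adjusted p = 0.0328), all by edgeR. Slc40a1, ferroportin, which lets iron out of cells, was higher by 0.36 (SE 0.09, adjusted p = 0.0369), and Bach1, a repressor released by heme, by 0.39 (SE 0.09, adjusted p = 0.0308). These were 3 of 9 heme breakdown and transport genes, 1 of 12 iron supply genes and 1 of 12 globin control genes tested, where 5.58% of all genes were called higher. The median changes of the heme breakdown and iron supply lists were 0 and -0.03, and 1 of 12 is near the share of all genes. None of the 14 other heme pathway genes and none of the 14 red cell markers was called for week.

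Platelet and B cell genes were called for week, while none of the 9 was. Of all genes tested, 5.58% were called higher at 4 weeks and 2.35% lower. All 6 platelet genes were higher at 4 weeks, led by Ppbp (3.19, SE 0.21, adjusted p = 9.7e-05, edgeR), and summed to 107 to 166 TPM at 2 weeks and to 495.5 to 828.9 TPM at 4 weeks. B cell genes were lower in 6 of 8, among them Igll1 (-0.74, SE 0.11, adjusted p = 0.00491) and Cd79a (-0.56, SE 0.08, adjusted p = 0.00346). Lane and week cannot be told apart for these genes either.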
